A study of Mus musculus with 3 samples.

Results

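Accessible chromatin in mouse embryonic stem cells expressing Halo-Sox2 was set directly against that in cells expressing Halo-Sox2a. These are 2 of the 3 libraries of the study, chosen by their labels, and the control cells without an inducible transgene were not used. By its title, the study concerns the charge of disordered protein regions, and how it acts on the way a transcription factor searches for sites and opens chromatin. The Halo-Sox2 library came from the line SES4.1, induced for 20 h with 300 ng/mL doxycycline. The Halo-Sox2a library came from the line SES5.1, induced for 20 h with 70 ng/mL. Both lines derive from CGR8 mouse embryonic stem cells, grown with serum, LIF, CHIR99021 (an inhibitor of GSK3) and PD184352 (an inhibitor of MEK). Both fusion proteins carried the Halo tag, were stained with 50 nM Halo-SiR dye, and were sorted with the same gate on dye intensity. About 50000 cells then entered each transposition reaction, and reads were paired and 75 bp long. The labels name Halo-Sox2a without describing how it differs from Halo-Sox2. Each protein is represented by a single derived line and 1 library. The protein, the line, the doxycycline dose and the library therefore cannot be told apart, and no difference could be set against a replicate error or given a p-value.

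Sox2 is a transcription factor with an HMG box, a DNA-binding domain that bends DNA at short words of the ACAATG and ACAAAG kind. It holds embryonic stem cells in a pluripotent state, often next to Oct4 (the product of Pou5f1), and it is called a pioneer factor because it can bind sites within nucleosomes. In ATAC-seq the Tn5 transposase cuts and tags open DNA, so a called peak marks a stretch of open chromatin and not the binding of Sox2 itself.

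The comparison ran over 117826 regions, made by merging peaks of the 2 lists that overlapped by at least 1 bp. Start sites of genes are where the deposited positions could be read as sequence, and 7 of them are printed because they show both sides of the comparison. Gm1070 had one of the largest shifts at a gene end. The others are the 3 starts of protein-coding genes for each library with the highest-scoring unique region over the whole start window, a choice made after the values were seen. Each is the 250 bases before the annotated start, 5′ to 3′ on the gene's strand, from the RefSeq tables of GRCm38.p6, with SOX words (ACAATG or ACAAAG on either strand) in capitals. The first 3 lay in regions held by Halo-Sox2 only, the next 3 in regions held by Halo-Sox2a only, and the last in a region held by both lists and scored higher in Halo-Sox2a.
Ermn, chr2:58052865-58053114, minus strand: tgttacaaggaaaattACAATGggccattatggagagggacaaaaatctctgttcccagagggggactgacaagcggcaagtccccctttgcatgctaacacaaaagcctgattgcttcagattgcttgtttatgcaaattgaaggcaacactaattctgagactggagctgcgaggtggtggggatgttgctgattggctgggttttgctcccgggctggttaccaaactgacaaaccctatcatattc
Tmem267, chr13:119487836-119488085, plus strand: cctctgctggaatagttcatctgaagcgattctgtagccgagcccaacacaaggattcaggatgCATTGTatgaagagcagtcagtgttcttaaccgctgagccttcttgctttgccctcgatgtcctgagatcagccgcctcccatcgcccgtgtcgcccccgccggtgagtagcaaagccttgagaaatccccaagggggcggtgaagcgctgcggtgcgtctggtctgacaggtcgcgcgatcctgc
Senp7, chr16:56057280-56057529, plus strand: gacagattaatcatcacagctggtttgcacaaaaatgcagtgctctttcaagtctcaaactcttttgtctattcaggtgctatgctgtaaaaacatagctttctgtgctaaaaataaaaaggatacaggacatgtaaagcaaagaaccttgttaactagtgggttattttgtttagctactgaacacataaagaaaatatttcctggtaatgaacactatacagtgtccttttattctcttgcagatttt
Plac8, chr5:100572206-100572455, minus strand: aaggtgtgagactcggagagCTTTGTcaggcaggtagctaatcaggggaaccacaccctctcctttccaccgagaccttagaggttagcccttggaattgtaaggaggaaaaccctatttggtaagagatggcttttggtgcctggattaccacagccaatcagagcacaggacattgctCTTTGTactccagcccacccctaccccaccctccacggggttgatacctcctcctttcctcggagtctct
Lrrc31, chr3:30699844-30700093, minus strand: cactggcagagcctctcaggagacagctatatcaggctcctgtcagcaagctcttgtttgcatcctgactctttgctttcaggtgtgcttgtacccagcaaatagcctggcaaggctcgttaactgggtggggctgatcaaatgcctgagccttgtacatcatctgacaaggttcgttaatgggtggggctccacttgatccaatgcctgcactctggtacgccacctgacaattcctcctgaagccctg
Atf7ip, chr6:136518601-136518850, plus strand: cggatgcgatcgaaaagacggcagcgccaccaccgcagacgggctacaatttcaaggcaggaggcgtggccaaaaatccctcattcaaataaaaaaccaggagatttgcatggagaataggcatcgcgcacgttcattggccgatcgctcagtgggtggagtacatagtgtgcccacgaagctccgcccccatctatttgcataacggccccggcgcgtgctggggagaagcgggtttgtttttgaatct
Gm1070, chr6:71293515-71293764, plus strand: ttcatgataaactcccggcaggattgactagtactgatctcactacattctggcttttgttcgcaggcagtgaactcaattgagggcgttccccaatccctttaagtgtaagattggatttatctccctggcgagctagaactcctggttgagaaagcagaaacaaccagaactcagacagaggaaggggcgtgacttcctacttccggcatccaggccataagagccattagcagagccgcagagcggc

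Ermn encodes a cytoskeletal protein of oligodendrocytes, Senp7 a protease that removes SUMO chains, and Atf7ip a partner of the histone methyltransferase SETDB1. A region over the Ermn start (chr2:58052685-58053361) had a score of 577 in the Halo-Sox2 list and no peak in the other. The score comes with each peak as deposited by the authors, its scale is not stated, and it served here only to rank peaks of the same list. By that ranking the Ermn region stood at percentile 90.6 of the Halo-Sox2 list, where 100 is the highest score, the Tmem267 region at 89.5 and the Senp7 region at 84.7. In the Halo-Sox2a list the Plac8 region stood at percentile 90.2, the Lrrc31 region at 85.4 and the Atf7ip region at 81.8, all without a Halo-Sox2 peak. In the printed bases Ermn and Tmem267 had 1 SOX word each, Plac8 had 2, and the other 4 had none, so that words were found and missing on both sides.

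The lists were of similar size, with 88898 Halo-Sox2 and 83995 Halo-Sox2a peaks. Sequencing depth is unknown, so a region without a peak may have fallen just short of the authors' threshold. Of 8 marker genes of embryonic stem cells, 6 had a Halo-Sox2 peak and 7 a Halo-Sox2a peak within 1 kb of a gene end. Marker genes of primitive endoderm (3 of 4), trophoblast (2 of 3), fibroblasts (3 of 3) and neural cells (2 of 2) had peaks in both lists as well, so that peaks at gene ends did not set the labelled cell type apart from others. Over the Sox2 gene itself a shared region (chr3:34650416-34651365) had a Halo-Sox2 score of 400 (rank 16278) and a Halo-Sox2a score of 12707 (rank 2). Both lines carry a Sox2 transgene whose sequence the labels do not give, so transgene reads placed on this gene cannot be told apart from the gene's own, and the Halo-Sox2 rank gives no check of that label. The region enters the counts as 1 of many.

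Open regions at gene starts were mostly shared between the libraries, and most unique regions lay away from them. The lists shared 53725 regions (45.6%, 95% Wilson interval 45.3 to 45.9%). Halo-Sox2 alone held 34396 regions, a percent called of 29.2 (28.9 to 29.5%), and Halo-Sox2a alone held 29705, a percent called of 25.2 (25.0 to 25.5%). With the lists cut to the same number of highest-scoring peaks, the unique shares were level at 27.3% and 27.4%, so Halo-Sox2 had no lead in number at equal length. These intervals cover counting error only, here and below, and neighbouring regions are not independent. The unique regions were narrower, with a median width of 373 bp for Halo-Sox2 only and 324 bp for Halo-Sox2a only against 736 bp for shared regions. They also scored lower within their own lists. The median list percentile was 37.2 for Halo-Sox2 only and 26.2 for Halo-Sox2a only, whereas the medians of shared regions were 59.5 by Halo-Sox2 and 65.7 by Halo-Sox2a scores. Nearly all shared regions (97.6%) joined exactly 1 peak of each list.

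Gene context was read from the region's midpoint, as at most 1 kb from either end of a protein-coding gene (a gene end), otherwise inside such a gene, otherwise outside. Of the shared regions 23.9% lay at a gene end, against 3.62% of Halo-Sox2 only and 4.83% of Halo-Sox2a only regions. Moving all regions by 100 kb gave a level for position alone, which was 4.98% for shared, 3.29% for Halo-Sox2 only and 4.24% for Halo-Sox2a only. Unique regions of both libraries were thus close to that level at gene ends, and shared regions were far above it. Halo-Sox2 only regions lay inside genes more often (49.3%, moved 45.9%) than Halo-Sox2a only regions (45.8%, moved 46.8%). Outside genes the order turned, with 47.1% of Halo-Sox2 only regions (moved 50.8%) and 49.4% of Halo-Sox2a only regions (moved 49.0%). The plot of gene context by class shows that the 2 unique classes resemble each other far more than either resembles the shared class.

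**Figure D1:**
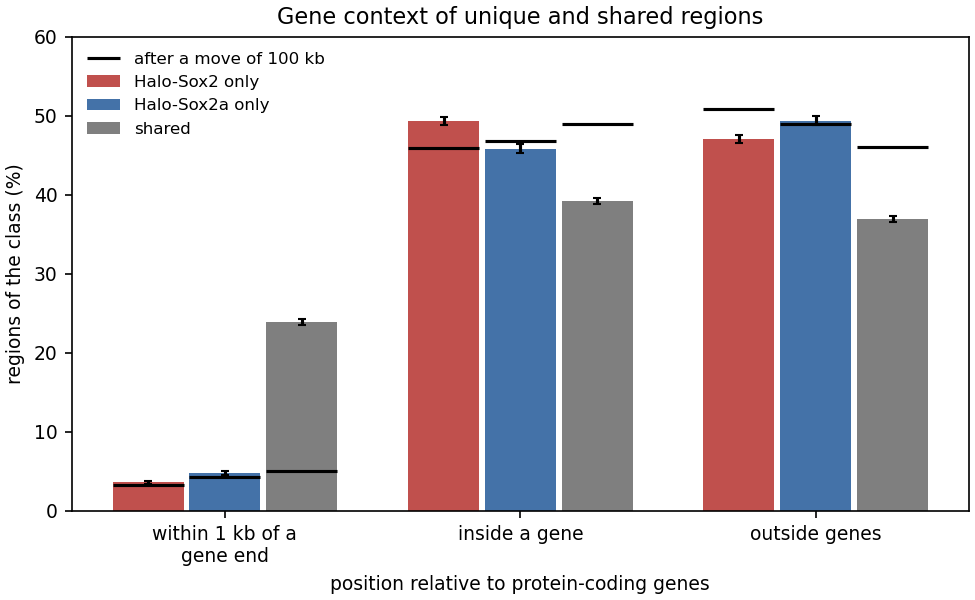
Share of regions of each class (y axis, %) by position relative to protein-coding genes (x axis), with bars for Halo-Sox2 only, Halo-Sox2a only and shared regions, Wilson 95% intervals as error bars, and black lines for the same regions moved by 100 kb. Shared regions reach 23.9% at gene ends, while both unique classes stay under 5% there and lie close to their moved level.

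Read the other way, 82.7% of the 15513 regions at gene ends were shared, 8.02% were Halo-Sox2 only and 9.25% were Halo-Sox2a only. Halo-Sox2a thus held more of the unique regions at gene ends, and Halo-Sox2 more of them elsewhere. Inside genes 32.9% of 51627 regions were Halo-Sox2 only and 26.4% Halo-Sox2a only, and outside genes 31.9% and 28.9% of 50686. With lists of equal size the shares were 6.81% and 10.6% at gene ends, 30.9% and 28.7% inside genes, and 30.1% and 31.3% outside, where the order turned. The balance also changed with the distance to the nearest annotated start, though not steadily. Within 250 bp of a start, 4.07% of regions were Halo-Sox2 only and 5.64% Halo-Sox2a only. From 1000 to 2500 bp Halo-Sox2 led with 28.6% and 24.3%, and from 2500 to 10000 bp Halo-Sox2a led, with 27.8% and 28.7%. From 10000 to 50000 bp the shares were 30.1% and 29.2%, and from 50000 to 200000 bp they were 37.1% and 25.9%. Shares by distance were not counted with lists of equal size.

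Longer genes held more of the Halo-Sox2 only regions. Among regions inside genes of up to 10 kb, 21.7% were Halo-Sox2 only and 22.6% Halo-Sox2a only. In genes of 10 to 50 kb the shares were 25.7% and 29.5%, so that Halo-Sox2a led. In genes of 100 to 500 kb they were 35.6% and 25.4%, and in genes above 500 kb 44.3% and 21.6% (42.6% and 23.3% with lists of equal size). The 5 genes with the most Halo-Sox2 only regions in or within 10 kb of them were all over 1 Mb long and known mainly from the nervous system. Csmd1, a large membrane protein with complement-control domains, had 36 Halo-Sox2 only regions and 11 Halo-Sox2a only. Tenm3, a teneurin that matches partner neurons, had 35 and 18. Dab1, the adaptor of reelin signalling, had 34 and 14. Ptprt, a receptor tyrosine phosphatase, had 34 and 10, and Nrxn3, a presynaptic neurexin, had 34 and 7. These 5 were chosen for that count, so their lead is a description. The 5 genes richest in Halo-Sox2a only regions follow. Msi2, an RNA-binding protein of stem cells, had 20 Halo-Sox2a only and 11 Halo-Sox2 only regions, and Tiam1, an exchange factor for Rac, had 19 and 8. The phosphodiesterase gene Pde4d had 22 and 21, the Slit receptor gene Robo1 20 and 19, and the teneurin gene Tenm4 19 and 18. Pde4d and Robo1 were also over 1 Mb long, and Tenm4, Msi2 and Tiam1 were 740, 379 and 358 kb long. Counts per gene were not corrected for gene length on either side. Across 21887 protein-coding genes, 448 had at least 5 more Halo-Sox2 only than Halo-Sox2a only regions, and 146 had at least 5 more the other way. These counts per gene used the full lists, of which the Halo-Sox2 list is longer, and were not made with lists of equal size.

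The unique regions of Halo-Sox2 reached higher in their own list than those of Halo-Sox2a. In the highest score decile of the Halo-Sox2 list, 1310 of 8905 peaks (14.7%) had no Halo-Sox2a peak. In the highest decile of the Halo-Sox2a list, 50 of 8420 peaks (0.594%) had no Halo-Sox2 peak. At the other end the order turned, and 58.8% of the lowest Halo-Sox2 decile and 76.0% of the lowest Halo-Sox2a decile lacked a counterpart. The high-scoring difference lay away from gene ends. Within the highest decile, 1.05% of Halo-Sox2 peaks at gene ends, 19.2% inside genes and 20.7% outside genes had no counterpart. For Halo-Sox2a those shares were 0.0271% (1 of 3692), 0.815% and 1.23%. The highest deciles also differed in make-up, since 27.7% of the Halo-Sox2 one and 43.9% of the Halo-Sox2a one lay at a gene end.

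**Figure D2:**
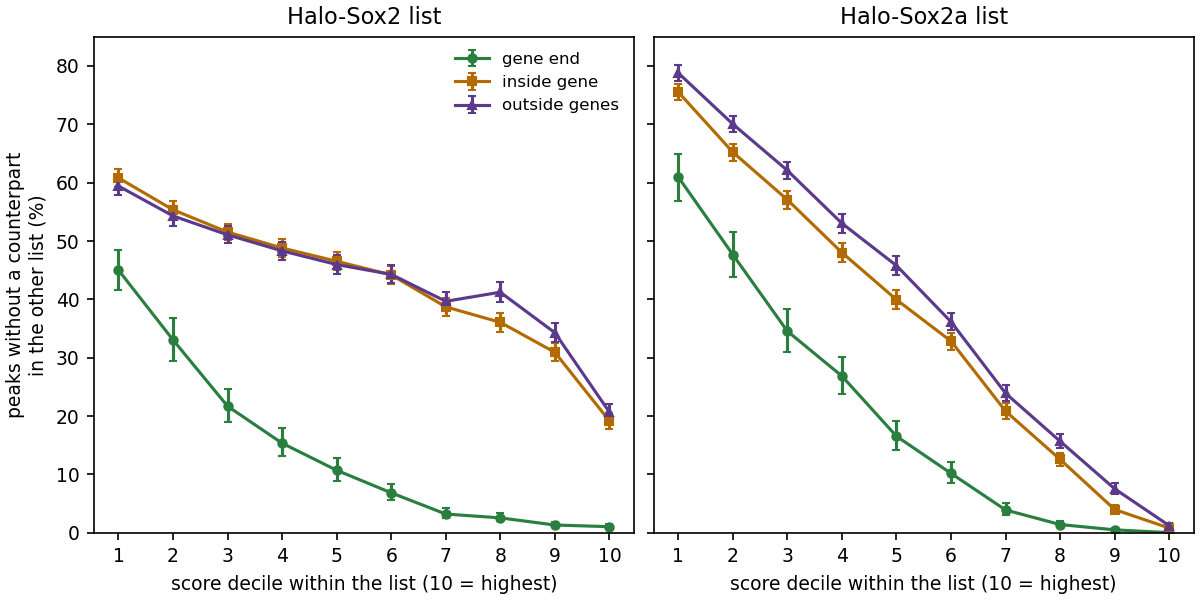
Peaks without an overlapping peak in the other list (y axis, %) by score decile within each list (x axis, 10 is highest), for the Halo-Sox2 list (left) and the Halo-Sox2a list (right), with lines for gene context and Wilson 95% intervals as error bars. In decile 10 the Halo-Sox2 lines inside and outside genes stand near 20%, and all Halo-Sox2a lines stand below 2%.

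The highest-scoring unique regions at or inside a protein-coding gene were taken from the same rankings. Their ranks therefore illustrate the asymmetry of the highest deciles and add nothing to it. For Halo-Sox2 all 5 lay inside genes on chromosome 8. A region inside Unc5d, which encodes a netrin receptor of migrating neurons, had a score of 1598 and rank 86 (chr8:29049237-29050151). Regions inside Wwox, an oxidoreductase gene spanning a fragile site (chr8:114899018-114899904, rank 173), Dync1li2, a dynein light intermediate chain (chr8:104427409-104428588, rank 208), and Vat1l, a gene of the quinone oxidoreductase family (chr8:114266527-114267527, rank 306) were also among them. For Halo-Sox2a the best ranks were lower. Zfp988, a zinc finger gene, held a region of rank 2299 (chr4:147310209-147310769) and Bdh1, a ketone body enzyme, one of rank 2707 (chr16:31424265-31424945). Stox2, a winged-helix gene (chr8:47221878-47222526, rank 4579), Frem2, an extracellular matrix protein (chr3:53598301-53598983, rank 5235), and Trdn, triadin of muscle (chr10:33419177-33419944, rank 5773), came next. Whether these regions are exonic or intronic could not be read from the gene table. Chromosome 8 held 28 of the 100 highest-scoring Halo-Sox2 only regions and 6 of the 100 of Halo-Sox2a. It held 6.58% of all Halo-Sox2 and 6.51% of all Halo-Sox2a peaks, and its peaks scored high in both lists. Of its peaks 15.1% fell in the highest Halo-Sox2 decile and 14.0% in the highest Halo-Sox2a decile, the most of the 19 autosomes in each. The part of this in the list of named regions was not tested.

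Unc5d shows how a single long gene divided. It had 22 Halo-Sox2 only, 4 Halo-Sox2a only and 9 shared regions. The Halo-Sox2 only regions ran from percentile 11.7 to 99.9 of their list, and the 4 Halo-Sox2a only regions stood at 17.3, 28.3, 33.3 and 53.7 of theirs. The region at the gene end (chr8:29218424-29220002) was shared and had similar standing, at percentile 97.1 of the Halo-Sox2 and 95.8 of the Halo-Sox2a list.

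Shared regions were next ranked against each other. Each took its highest score in each list, the scores were turned into percentiles over the 53725 shared regions, and the shift is the Halo-Sox2 percentile minus the Halo-Sox2a percentile, in points. Ranking in this way gives both libraries the same length and the same mean, so that only the order can differ. The median shift was -1.94 points, with quartiles of -14.5 and 11.5. Gene ends kept their order best, with a median size of shift of 7.91 points and a Spearman correlation of 0.863 over 12834 regions. Inside genes the median size was 15.4 points (correlation 0.510, 21055 regions), and outside genes 16.2 points (0.503, 19836 regions). These correlations are across regions of 1 pair of libraries and are given as a description. The median shift was -2.87 points at gene ends, -0.66 inside genes and -2.35 outside genes.

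**Figure D3:**
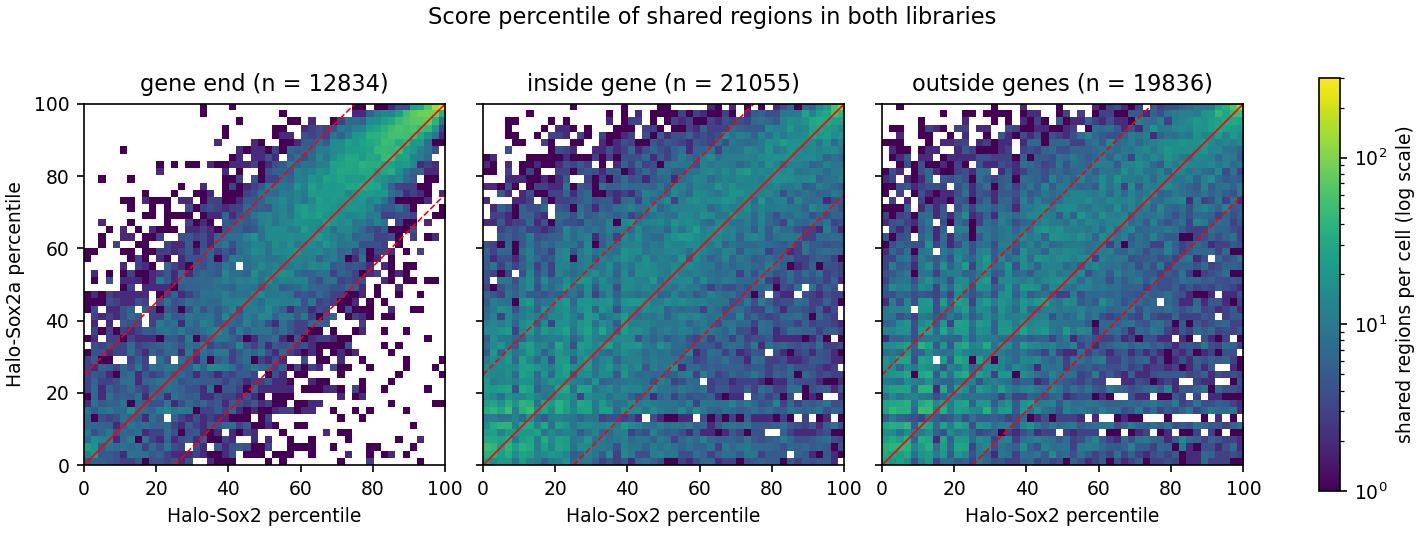
Percentile of each shared region in the Halo-Sox2 list (x axis) and the Halo-Sox2a list (y axis), both over all shared regions, in 3 panels by gene context, with colour for the number of regions per cell on a log scale, a solid line for no shift and dashed lines for shifts of 25 points. Gene ends hug the solid line at the high end, and regions inside or outside genes spread into both corners.

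Large shifts were about equally common in both directions, and the largest went to Halo-Sox2. Of all shared regions, 7421 stood at least 25 points higher in Halo-Sox2 (percent called 13.8) and 7022 at least 25 points higher in Halo-Sox2a (percent called 13.1). At 50 points or more the counts were 2598 (percent called 4.84) and 1139 (percent called 2.12). Inside genes 17.5% of shared regions stood 25 points or more higher in Halo-Sox2 and 14.0% in Halo-Sox2a. Outside genes the shares were 16.3% and 16.9%, and at gene ends 3.99% and 5.67%, so that gene ends leaned the other way. The regions 25 points or more higher in Halo-Sox2 lay at a median of 30059 bp from a start site, those higher in Halo-Sox2a at 21864 bp, and those between at 12667 bp. Of the top 10% of shared regions by Halo-Sox2 score, 15.6% (837) stood under the 50th percentile in Halo-Sox2a. Of the top 10% by Halo-Sox2a score, 3.35% (180) stood under the 50th percentile in Halo-Sox2.

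The largest shifts were named in each context, among shared regions with 1 peak of each list. At gene ends the region with the largest shift towards Halo-Sox2 lay by Sft2d3, a gene of vesicle transport, with percentiles of 93.5 in Halo-Sox2 and 0.0856 in Halo-Sox2a. The region 965 bp beyond the far end of Naa30, a catalytic subunit of an N-terminal acetyltransferase (chr14:49191504-49192204), stood at 93.6 and 7.22. Regions at the far ends of 1810062G17Rik (chr3:36481661-36482185; 93.0 and 7.22) and of Tob1, an antiproliferative gene (chr11:94216133-94216757; 88.3 and 2.84), were alike. In the 3 of these with a known strand the gene end was therefore the far end and not the start. Towards Halo-Sox2a, Chst5, a sulfotransferase (chr8:111887979-111888508), stood at 5.91 in Halo-Sox2 and 78.2 in Halo-Sox2a, and the ubiquitin ligase gene Znrf1 (chr8:111626075-111626834) at 33.4 and 99.2. Gm2a, the activator of GM2 ganglioside breakdown (chr11:55113400-55114115), stood at 13.8 and 79.1. Those 3 were also far ends. The start of Gm1070, printed above without a SOX word, was the exception, with a score of 119 (percentile 32.6) in Halo-Sox2 and 672 (96.8) in Halo-Sox2a over chr6:71293232-71294224.

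Inside genes the largest shifts towards Halo-Sox2 lay in Adamts18, an extracellular protease (chr8:113753739-113754818; percentiles 99.6 in Halo-Sox2 and 2.84 in Halo-Sox2a), in Sh3kbp1, an adaptor of receptor endocytosis (chrX:159868738-159869796; 96.9 and 0.636), and in Cd86, a costimulatory ligand of T cells (chr16:36581611-36582437; 96.3 and 0.636). Towards Halo-Sox2a they lay in Fbxo8, an F-box gene (chr8:56566538-56567511; 7.53 and 94.9), in Nmnat2, an enzyme of NAD synthesis in axons (chr1:153009159-153009848; 7.53 and 93.8), and in Clybl, a mitochondrial lyase (chr14:122331992-122332541; 9.42 and 95.5). Outside genes the largest towards Halo-Sox2 had as nearest genes St8sia4, a polysialyltransferase (chr1:95533206-95533923, 54118 bp away; 98.6 and 0.636), Dcbld2, a neuropilin-like membrane protein (chr16:58316704-58317430; 98.8 and 1.98) and Hao1, a liver oxidase (chr2:134381597-134382247; 98.6 and 1.98). Those towards Halo-Sox2a lay nearest the olfactory receptor gene Olfr153 (chr2:87534646-87535259, 1994 bp away; 4.88 and 98.2), Phf14, a PHD finger gene (chr6:12126398-12127325; 3.801 and 92.4) and the zinc finger gene Zfp810 (chr9:22315920-22316754; 4.88 and 93.1). The extremes in both directions thus crossed almost the whole range of scores.

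Regions in or within 10 kb of listed genes were then counted. Over all protein-coding genes the percent called was 26.9 for Halo-Sox2 only and 23.5 for Halo-Sox2a only, and each list is read against these. Of the 136 regions near 20 pluripotency genes, 22 (16.2%, interval 10.9 to 23.3%) were Halo-Sox2 only and 36 (26.5%, 19.8 to 34.5%) Halo-Sox2a only, so the Halo-Sox2 share lay below its background. Of 78 shared regions there, 4 (5.13%) stood 25 points or more higher in Halo-Sox2 and 10 (12.8%) in Halo-Sox2a, against a percent called of 12.4 and 11.5 among shared regions near all protein-coding genes. The count towards Halo-Sox2 was thus low, and the count towards Halo-Sox2a was near the background. The 19 shared regions at any gene end near these genes had a median shift of -10.3 points, against -2.87 over all genes. At the starts of the pluripotency genes themselves, 8 of which had a shared region, the median shift was -0.40 points, with a range from -20.6 to 28.6. The list of 13 formative and primed genes had a like pattern, with 17.7% Halo-Sox2 only and 29.4% Halo-Sox2a only among 102 regions. In it the epithelial factor gene Grhl2 had 2 Halo-Sox2 only and 8 Halo-Sox2a only regions, and the Wnt effector gene Lef1 4 and 8. The FGF and ERK list of 15 genes gave 20.0% (14.0 to 27.7%) and 30.0% (22.8 to 38.4%) of 130 regions, with intervals that included both backgrounds. There the exchange factor gene Sos1 had 2 Halo-Sox2 only and 6 Halo-Sox2a only, and Spred2, an inhibitor of the pathway, 1 and 8. Trophoblast genes had 15.3% and 26.4% of 72 regions and mesendoderm genes 13.7% and 21.6% of 51. In all 5 lists the interval of the Halo-Sox2a only share included its background of 23.5%, and that of the Halo-Sox2 only share lay below 26.9% in each but the FGF and ERK list. In each of these 5 lists Halo-Sox2a led with lists of equal size as well, where the background was 25.0% and 25.7%. Many genes of these lists are shorter than 50 kb. Halo-Sox2a also led inside all protein-coding genes of 10 to 50 kb (25.7% and 29.5%) and of up to 10 kb (21.7% and 22.6%). The part of gene length in these 5 lists was not tested.

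Axon guidance genes leaned most clearly the other way. Among 498 regions near 29 of these genes, 183 (36.7%, 32.6 to 41.1%) were Halo-Sox2 only and 108 (21.7%, 18.3 to 25.5%) Halo-Sox2a only. Their 207 shared regions had a median shift of 3.13 points, with 46 (22.2%) at least 25 points higher in Halo-Sox2 and 25 (12.1%) in Halo-Sox2a. Read against 12.4% and 11.5% near all genes, the first share stood above the background and the second near it. Robo2, a Slit receptor, had 26 Halo-Sox2 only and 12 Halo-Sox2a only regions, and Unc5d 22 and 4. Many of these genes are long, and the share of Halo-Sox2 only regions rose with gene length over all genes too. The part of gene length in this count was not tested. The 39 Hox genes, which pattern the body axis, had 30.0% Halo-Sox2 only (22.2 to 39.1%) and 10.9% Halo-Sox2a only (6.35 to 18.1%) among 110 regions, with Hoxd10 at 6 and 0. With lists of equal size these were 35.3% and 23.4% for axon guidance genes and 21.4% and 13.3% for Hox genes. The Halo-Sox2 only interval of Hox genes included its background of 26.9%, and at equal size their share lay below the 25.0% of all genes. What departed from its background near Hox genes was the Halo-Sox2a only share, which lay below 23.5%. Hox genes stand in clusters, so their regions are counted once but neighbour several genes.

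The other lists lay closer to level, and some turned with the length of the lists. Neural genes had 18.5% and 13.04% of 92 regions, and with lists cut to equal size the order turned to 14.8% and 17.0%. Primitive endoderm genes had 23.5% and 18.5% of 81 regions, equal at 20.5% each with lists of equal size. LIF and STAT3 genes had 25.4% and 17.9% of 67 regions, Sox family genes 27.2% and 21.9% of 151, imprinted genes 25.3% and 24.1% of 87, and glycolysis genes 16.4% each of 116. Ribosomal protein genes, active in all cells, had 15.3% and 19.7% of 314 regions, and 12.8% and 22.0% with lists of equal size. The Halo-Sox2 only intervals of glycolysis genes (10.7 to 24.2%) and ribosomal protein genes (11.7 to 19.7%) lay below 26.9%. A low Halo-Sox2 only share was therefore not particular to pluripotency and developmental genes. Chemoreceptor genes, which stem cells do not use, had 30.5% and 33.3% of 478, against backgrounds of 26.9% and 23.5%. The Halo-Sox2 only interval (26.6 to 34.8%) included its background. Within 50 kb of these genes the Halo-Sox2 only share was 25.0%, below the 27.0% of all genes at that distance. The Halo-Sox2a only interval (29.2 to 37.6%) lay above its background. Within 50 kb that share was 33.0%, against 24.7% for all genes, and with lists of equal size 35.6%, against 25.7%. Of 173 shared regions there, 24.3% stood 25 points or more higher in Halo-Sox2a and 13.3% in Halo-Sox2, against 11.5% and 12.4% near all genes.

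**Figure D4:**
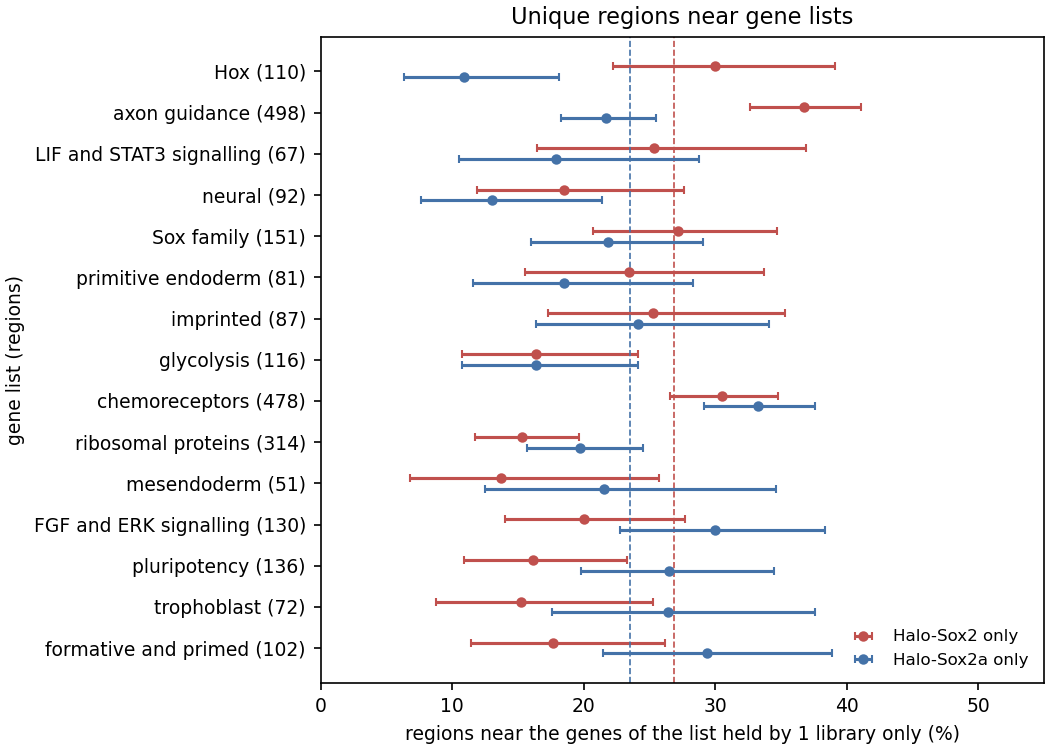
Share of regions near each gene list held by 1 library only (x axis, %), for the lists on the y axis with their number of regions, as points with Wilson 95% intervals, and dashed lines for all protein-coding genes (26.9% and 23.5%). Hox and axon guidance genes have the widest lead for Halo-Sox2 only, and formative and trophoblast genes lie at the other end. The Hox interval for Halo-Sox2 only spans its dashed line.

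Single pluripotency loci, chosen after their values were seen, show where the order changed. At the Nanog start a region was held by Halo-Sox2a only (chr6:122707140-122707582), with a score of 113 at percentile 54.7 of that list. The high-scoring region upstream of Nanog (chr6:122702264-122703234) was shared and kept its place, at 97.7 among shared regions in Halo-Sox2 and 98.6 in Halo-Sox2a. Around Fgf4, a growth factor gene and known target of Sox2 and Oct4, 2 shared regions outside the gene stood higher in Halo-Sox2a. The first (chr7:144851149-144851871) had percentiles of 52.0 in Halo-Sox2 and 84.9 in Halo-Sox2a, and the second (chr7:144857091-144858459) 41.0 and 71.8. The region at the Fgf4 start (chr7:144861144-144861904) went the other way, at 39.1 and 10.5. A region at the far end of Fgf4 (chr7:144864287-144864812) was held by Halo-Sox2a only, at percentile 58.7 of that list. Lefty1, a secreted inhibitor of Nodal, had a shared region outside the gene (chr1:180924646-180925439) at 38.01 in Halo-Sox2 and 87.1 in Halo-Sox2a. The start of Klf4, a reprogramming factor (chr4:55532006-55533505), stood at 58.9 and 79.5, while a region inside that gene (chr4:55530052-55530850) stood at 53.7 and 8.79. At Pou5f1 a region inside the gene (chr17:35509365-35509997) stood at 68.2 and 28.9, and the remaining shared regions differed by less than 10 points. Near Fgf4 and Klf4, regions within 10 kb of 1 gene thus stood higher in different libraries. Unique regions also fell to different libraries by locus. Nanog had 0 Halo-Sox2 only and 1 Halo-Sox2a only region, and Fgf4 0 and 2. Klf4 and Sox2 had 3 and 0 each, and Pou5f1 and Lefty1 1 and 0 each. Over the 20 pluripotency genes the counts were 22 and 36.

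SOX words were counted in the 300-base start windows of the RefSeq table (250 bases before and 50 after the start) of 27025 genes. Of all 32851 windows, 28.6% held at least 1 of the words ACAATG and ACAAAG on either strand. Windows touching a Halo-Sox2 only region held them in 45.1% (239 of 530, interval 40.9 to 49.4%), and windows touching a Halo-Sox2a only region in 30.0% (207 of 691, 26.7 to 33.5%). The same words read backwards, GTAACA and GAAACA, have the same base composition and served as a rough measure of what composition gives. Of all windows 23.95% held a reversed word. Reversed words occurred in 21.1% (17.9 to 24.8%) of the Halo-Sox2 only and 28.5% (25.3 to 32.0%) of the Halo-Sox2a only windows. SOX words thus exceeded their reversed forms by a wide margin in Halo-Sox2 only windows, and the intervals of both overlapped in Halo-Sox2a only windows. From 40 to 50% GC, reversed words occurred in 31.55% of Halo-Sox2 only windows and 33.3% of windows without a region of either library. From 60 to 70% GC these shares were 7.77% and 8.41%. From 50 to 60% GC the Halo-Sox2 only share was lower, at 18.5% (13.5 to 24.9%) against 26.1%. Halo-Sox2a only windows held reversed words in 40.7% (34.0 to 47.9%), 26.7% and 14.4% (8.94 to 22.4%) from the lowest band to the highest. The first and last of these lay above the windows without a region, so reversed words did not follow GC content alone. Each SOX word alone was also more frequent in Halo-Sox2 only than in Halo-Sox2a only windows. ACAATG occurred in 20.9% and 11.6% of them, and ACAAAG in 35.5% and 20.3%.

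Starts in shared regions, and starts without a region, were counted in the same way. Windows in shared regions 25 points or more higher in Halo-Sox2 held a SOX word in 30.8% (143 of 464) and a reversed word in 17.9%. Those 25 points or more higher in Halo-Sox2a held them in 24.4% (184 of 753) and 17.4%, and those between in 18.3% (of 13573) and 15.5%. Windows without a region of either library held a SOX word in 36.4% and a reversed word in 31.1%, with a median GC content of 47.0%. The windows differed in base composition, with a median GC content of 51.7% for Halo-Sox2 only, 53.3% for Halo-Sox2a only and 62.3% for shared windows between. Within bands of GC content the order of the unique classes stayed. From 40 to 50% GC the share with a SOX word was 59.9% of Halo-Sox2 only and 39.7% of Halo-Sox2a only windows, from 50 to 60% it was 42.1% and 29.2%, and from 60 to 70% it was 26.2% and 12.5%. Windows without a region held a SOX word in 38.4%, 29.0% and 16.5% of these bands. Those shares lay within the Halo-Sox2a only intervals and below the Halo-Sox2 only intervals of the same bands. Shared windows 25 points or more higher in Halo-Sox2a held one of the words in 41.3%, 26.2% and 13.7%. Shared windows 25 points or more higher in Halo-Sox2 held a SOX word in 61.3% (80 windows), 38.4% (138) and 16.4% (152) of these bands, so that in the first band they were level with the Halo-Sox2 only windows. For protein-coding genes alone, 38.6% of Halo-Sox2 only and 24.8% of Halo-Sox2a only windows held a SOX word. The octamer ATGCAAAT, the word of Oct4 and other POU factors, occurred in 1.51% of Halo-Sox2 only and 2.32% of Halo-Sox2a only windows, with intervals of 0.767 to 2.95% and 1.43 to 3.73% that overlap. The joined SOX and octamer motif was found in 12 of all windows. Of these, 0 were Halo-Sox2 only and 3 were Halo-Sox2a only windows, too few to compare. A word in a window is a match of letters and not a bound site, and these windows cover starts only, whereas most unique regions lay elsewhere.

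**Figure D5:**
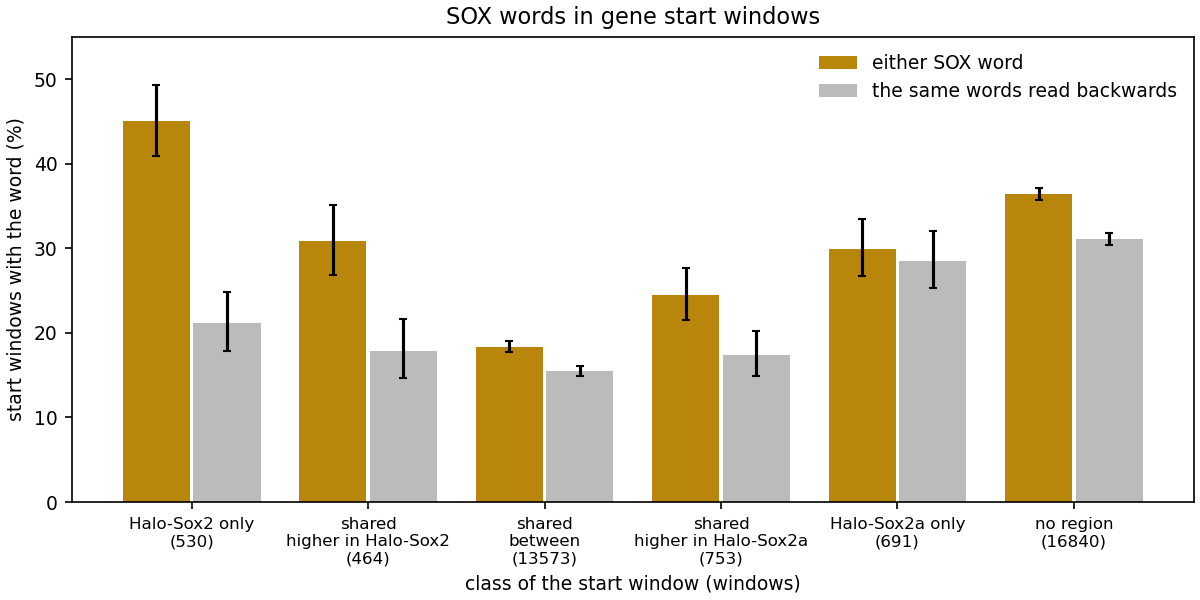
Share of 300-base start windows (y axis, %) with either SOX word and with the same words read backwards, by the class of the region that the window touches (x axis, number of windows in brackets), with Wilson 95% intervals as error bars. Halo-Sox2 only windows hold SOX words in 45.1% and reversed words in 21.1%, while the Halo-Sox2a only pair stands at 30.0% and 28.5%.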

How the data were processed

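ATAC-seq peak lists of 2 libraries were analysed, 1 per group, and grouped by their labels. The score of each peak is a whole number deposited by the authors, with no stated scale. It ranked peaks within a list, and no level was compared between lists. The submitters' processing notes name mm10, STAR, SAMtools, MACS2 3.0.0a7, MACS3 and deepTools 3.3.0 without roles. The peak threshold, the handling of transposase offsets and the use of each tool are not given in the sources used here. Each library's peaks carry its own name in the lists, so peaks were called per library. Depth is unknown, and Wilson 95% intervals cover counting error only.

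Peaks overlapping by at least 1 bp were merged, and positions were made 1-based. Gene positions and 300-base start windows came from RefSeq tables of GRCm38.p6, the same assembly as mm10, and no sequence was printed from chromosome 18. A region's context was its midpoint's place relative to protein-coding genes, with 1 kb for gene ends and 10 kb for gene lists. Percentiles used average ranks. Named regions were the 5 highest-scoring unique ones of each library at or inside genes, and the largest shifts each way among shared regions with 1 peak of each list (4 at gene ends, 3 inside and 3 outside genes). One of these regions is not reported here. Named genes were the 5 with the most unique regions per library and up to 2 per gene list. The members and the 15 gene lists were chosen with earlier results of these data known. No test was made, because a group is 1 library. Alternatives covered the overlap rule, score thresholds, list size, chromosomes, gene-end distance, gene set and ranking. The scripts ran in Python 3.11.15 with numpy 2.4.6, pandas 2.3.3 and scipy 1.17.1, and merging, context and ranking were tested on simulated data.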

Additional observations from a re-analysis of the deposited data

How the results depend on the processing

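No paired analysis was possible because each group has 1 library and no replicates. The share of regions held by Halo-Sox2 only (29.2%) and by Halo-Sox2a only (25.2%) was 29.7% and 25.8% when peaks had to overlap by 50% of the shorter peak, 34.5% and 30.7% by 50% of both, and 28.8% and 24.5% when a gap of 500 bp was allowed. Above list percentile 50 these were 29.7% and 25.8%, above percentile 75 they were 31.4% and 27.4%, and with lists of equal size they were level at 27.3% and 27.4%.

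The share at gene ends (3.62% for Halo-Sox2 only, 4.83% for Halo-Sox2a only, 23.9% for shared) was 8.45%, 11.0% and 30.6% within 2.5 kb, and 7.28%, 9.94% and 29.5% over all genes of the table. It was 4.04%, 9.53% and 35.1% above percentile 50, and 3.32%, 5.16% and 24.3% with lists of equal size. Across these 4 settings the 3 classes kept their order. Percentiles within each full list moved the median shift to -4.63 points at gene ends, -4.80 inside and -6.69 outside genes, in rankings that also count the unique peaks of each list.

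The 20 named shifts stayed at 25 points or more in their direction in all 60 values under other rankings. The order of the unique shares turned with lists of equal size outside genes (30.1% and 31.3%), inside genes of 50 to 100 kb (28.8% and 30.4%), near all genes (25.0% and 25.7%), near neural genes (14.8% and 17.0%) and near imprinted genes (23.5% and 25.9%). Leaving out chromosome 8, chosen after seeing the data, moved none of the 5 main shares and shifts beyond their counting intervals. Among gene lists, it turned primitive endoderm genes to 20.0% and 21.4%, as did a distance of 50 kb (24.8% and 28.3%). Without read counts, a region just under 1 list's threshold cannot be told from one that is closed.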

Other observations

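Unique regions were also counted along chromosomes. Among bins of 1 Mb with at least 20 regions, the one with the highest share of Halo-Sox2 only regions was on chromosome 14 from 23000001 to 24000000, where 29 of 33 regions (87.9%) were Halo-Sox2 only and 0 were Halo-Sox2a only. Kcnma1, a calcium-activated potassium channel gene, had 25 Halo-Sox2 only and 5 shared regions, and its neighbour Lrmda 11 and 3. The bin with the highest share of Halo-Sox2a only regions was on chromosome 12 from 63000001 to 64000000, with 14 of 20 regions and no protein-coding gene. Next came a bin on chromosome 5 from 87000001 to 88000000, with 16 of 23, which holds Ugt2b glucuronosyltransferase and sulfotransferase genes. In a bin on chromosome 10 from 129000001 to 130000000, 15 of 22 regions were Halo-Sox2a only, over a cluster of olfactory receptor genes. The bins were chosen for these shares, so the shares are a description.

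Halo-Sox2 only regions lay farther from any peak of the other list than the reverse. The median gap was 9207 bp for Halo-Sox2 only and 7115 bp for Halo-Sox2a only regions, and 10.7% and 5.49% lay more than 50 kb from the nearest peak of the other list. The gaps run to lists of different length (83995 Halo-Sox2a and 88898 Halo-Sox2 peaks) and were not measured at equal length.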
